A study of Mus musculus with 66 samples.

Results

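The NMDA receptor subunit genes Grin1, Grin2a, Grin2b, Grin2c, Grin2d and Grin3a were followed through a mouse study of acute ethanol in the medial prefrontal cortex. Every probe set annotated to these symbols was taken: 11 of the 45037 probe sets on the Affymetrix arrays, which read 5 of the 6 genes (1 for Grin2a, 4 for Grin2b, 1 for Grin2c, 2 for Grin2d and 3 for Grin3a). Grin1 is not analysed here. A probe set is a group of short probes that read one stretch of a transcript, and its value is a log2 signal in which 1 unit is a doubling. The level of a probe set was never set against that of another gene, since probes differ in how strongly they bind.

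The 66 arrays came from male mice aged 10 to 12 weeks, with 4 to 5 animals pooled on every array. Mice of the inbred strains C57BL6/J and DBA/2J, the progenitors, gave 3 arrays after saline and 3 after ethanol in each strain. The other arrays came from 27 BXD strains, inbred lines derived from a cross of these progenitors so that each carries a fixed mosaic of their chromosomes, with 1 saline and 1 ethanol array per strain. Ethanol was given by intraperitoneal injection at 1.8 g/kg, and tissue was taken 4 h later. All animals, saline controls included, had been restrained for 15 min and kept in a light-dark chamber for 10 min. The labels do not say whether the 3 arrays of a progenitor group came from separate pools, so p-values measure the spread between these arrays.

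NMDA receptors are glutamate-gated cation channels that let calcium into neurons and set off many forms of synaptic plasticity. Each channel joins Grin1 subunits, which bind glycine or D-serine, with Grin2 subunits, which bind glutamate and set how long the channel stays open. Grin3 subunits bind glycine and give channels that pass less calcium. Ethanol at intoxicating concentrations inhibits NMDA receptor currents, and in the adult forebrain Grin2a and Grin2b are the usual glutamate-binding partners.

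The arrays were alike in overall spread. Median signals lay between 5.67 and 5.77, the SD over probe sets between 2.06 and 2.17, and the correlation between any pair of arrays between 0.983 and 0.997. Of the measured cortical excitatory neuron genes, 12 of 12 lay above the dim level of 5.10, the 40th percentile of all probe sets. So did 8 of 8 striatal, 5 of 6 cerebellar granule cell and 5 of 6 thalamus genes, so these counts cannot identify the tissue. All 11 subunit probe sets reached that level too, although Grin2a (mean 5.21 over the 66 arrays) and the Grin2b probe set 1431700_at (5.16) were only just above it.

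Grin2b, the glutamate-binding subunit best known for slow channel closing and for its prominence early in life, was lower in DBA/2J than in C57BL6/J on 2 of its 4 probe sets. With the probe set 1422223_at, the saline C57BL6/J arrays read 7.14, 7.14 and 7.15, and the saline DBA/2J arrays 6.01, 5.59 and 6.07. All DBA/2J arrays were below all C57BL6/J arrays, without overlap. After ethanol the C57BL6/J arrays read 6.69, 7.27 and 6.82, and the DBA/2J arrays 5.99, 5.85 and 5.18, again without overlap. DBA/2J was lower by a log2 difference of -1.25 ± 0.19 (SE, n = 3 against 3; limma adjusted p = 3.13e-04) after saline, a signal 0.419 times that of C57BL6/J (95% interval 0.319 to 0.550). After ethanol the difference was -1.26 ± 0.19 (n = 3 against 3; limma adjusted p = 3.23e-04).

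The brightest Grin2b probe set, 1457003_at, gave the same direction. Saline C57BL6/J arrays read 9.38, 8.90 and 9.22, and saline DBA/2J arrays 7.80, 8.24 and 8.09. Ethanol C57BL6/J arrays read 9.18, 9.10 and 9.26, and ethanol DBA/2J arrays 8.45, 8.16 and 8.57. No DBA/2J array reached the lowest C57BL6/J array under either treatment. The log2 difference was -1.12 ± 0.14 (SE, n = 3 against 3; limma adjusted p = 4.38e-05) after saline and -0.79 ± 0.14 (limma adjusted p = 0.00172) after ethanol. These correspond to signals 0.460 times (95% interval 0.377 to 0.563) and 0.580 times (0.474 to 0.709) those of C57BL6/J.

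**Figure D1:**
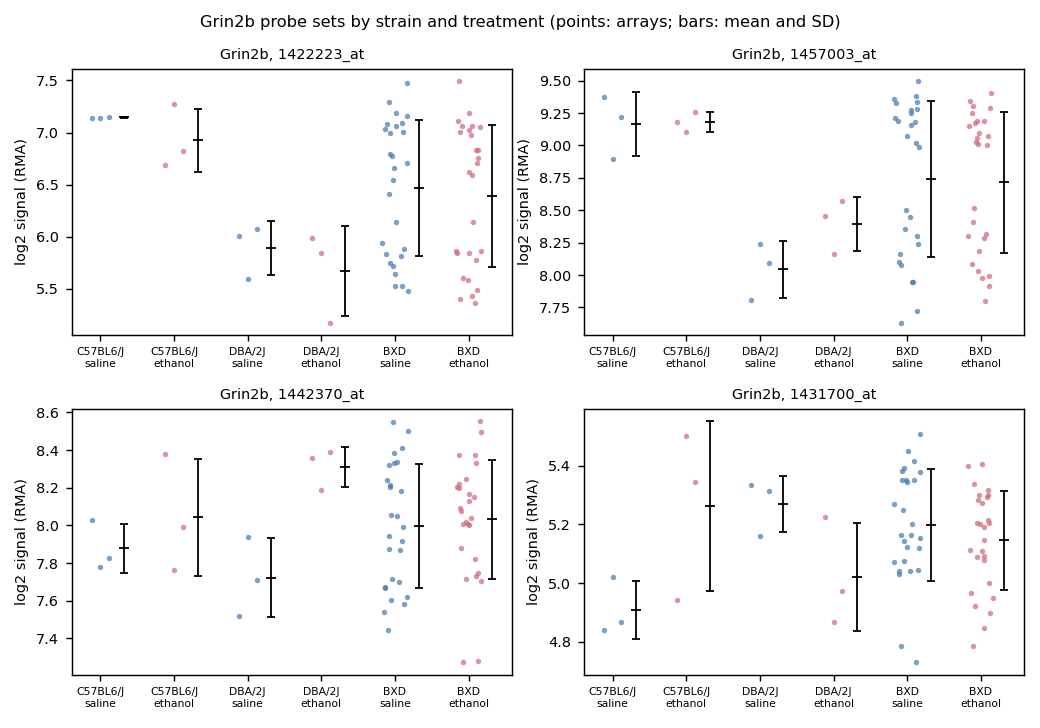
Log2 signal of the 4 Grin2b probe sets in the 6 strain and treatment groups; each point is an array, and bars give mean and SD (n = 3 for each progenitor group, n = 27 for each BXD group). On 1422223_at and 1457003_at the DBA/2J arrays lie below the C57BL6/J arrays and the BXD arrays fall into a lower and a higher band, while 1442370_at and 1431700_at show no such bands.

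The other Grin2b probe sets did not pass in either comparison of the progenitors. With 1442370_at the saline arrays read 8.03, 7.78 and 7.83 in C57BL6/J and 7.52, 7.94 and 7.71 in DBA/2J, which overlap. The ethanol arrays read 8.38, 7.76 and 7.99 in C57BL6/J and 8.36, 8.19 and 8.39 in DBA/2J, which overlap as well. DBA/2J minus C57BL6/J was -0.16 ± 0.14 (limma adjusted p = 0.585) after saline and 0.27 ± 0.14 (limma adjusted p = 0.433) after ethanol.

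The dim probe set 1431700_at ran the opposite way under the 2 treatments. Saline arrays read 4.84, 5.02 and 4.87 in C57BL6/J and 5.34, 5.16 and 5.31 in DBA/2J, a difference of 0.36 ± 0.13 (limma adjusted p = 0.129) whose groups do not overlap. Ethanol arrays read 4.94, 5.50 and 5.34 in C57BL6/J and 5.23, 4.87 and 4.97 in DBA/2J, a difference of -0.24 ± 0.13 (limma adjusted p = 0.458) whose groups overlap.

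The disagreement between Grin2b probe sets was tested directly, as the gap between each probe set and 1457003_at on the same array, with strain labels permuted within treatment. The gap of 1442370_at (probe set minus 1457003_at) was smaller in size in DBA/2J, -0.20 against -1.21 in C57BL6/J, a signed difference of 1.01 log2 units (exact permutation test, two-sided p = 0.005, the smallest its 400 arrangements allow; adjusted p = 0.015 over 6 pairs). For 1431700_at the gap also differed by 1.01 (-3.07 against -4.09; exact permutation p = 0.005, adjusted p = 0.015), by 1.48 after saline and 0.54 after ethanol. That probe set lies near the dim level, so its gap largely restates the difference of 1457003_at and is no separate evidence of disagreement. The gap of 1442370_at also comes mostly from 1457003_at. Its own mean over 6 arrays was 7.96 in C57BL6/J and 8.02 in DBA/2J, well above the dim level. For 1422223_at the gap differed by -0.30, which did not pass (exact permutation p = 0.26, adjusted p = 0.33). The pairs within Grin2d and Grin3a did not pass either, with differences in gap between -0.15 and -0.07 and adjusted p from 0.3 to 0.33 in the exact permutation test.

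Among the 11 subunit probe sets, these 2 of Grin2b, both lower in DBA/2J, were the ones that passed after saline, where 5.76% of all probe sets passed. The same count, 2 of 11 and both lower, was found after ethanol, where 4.31% of all passed. Groups that did not overlap were seen for 4 of 11 after saline (24.2% of all probe sets) and for 2 of 11 after ethanol (19% of all). The 9 that did not pass had 95% intervals that reached from 0.723 to 1.57 times after saline and from 0.699 to 1.48 times after ethanol. The lower Grin2b signal was seen on 2 of 4 probe sets, and whether sequence differences between the strains under the probes alter it was not tested. In whole tissue, fewer cells that express a gene and less of its RNA per cell cannot be told apart.

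Markers of other cell types also differed between the progenitors. The mean of 9 measured myelinating oligodendrocyte genes ranged from 7.78 to 8.14 over the saline DBA/2J arrays and from 8.58 to 8.66 over the saline C57BL6/J arrays. After ethanol it ranged from 8.00 to 8.12 and from 8.29 to 8.53. The mean of 10 microglial genes was 7.80 against 8.03 after saline and 7.82 against 7.95 after ethanol. The mean of 10 inhibitory neuron genes did not overlap after ethanol, from 9.39 to 9.45 in DBA/2J against 9.19 to 9.26 in C57BL6/J, and after saline ranged from 9.25 to 9.46 against 9.24 to 9.25. In the saline and ethanol arrays, 8 and 3 of 9 myelinating genes and 3 and 2 of 10 microglial genes passed, all lower in DBA/2J. Whether they passed or not, 0 and 1 of the 9 myelinating genes were higher in DBA/2J. The microglial list was mixed, with 4 of 10 higher under each treatment. Of 10 inhibitory neuron genes 1 and 1 passed, both higher. In each case it was Reln, which is also among the listed receptor machinery genes given below. Over all genes measured 6.01% and 4.18% passed. Of 10 meningeal and fibroblast genes 0 and 2 passed, both lower. Their mean after ethanol ranged from 7.805 to 7.977 in DBA/2J against 7.980 to 8.183 in C57BL6/J. Of 6 cerebellar granule cell genes 2 (1 higher, 1 lower) and 1 (lower) passed. Their mean after ethanol ranged from 5.96 to 6.03 against 6.11 to 6.16. Both of these lists overlapped after saline. The excitatory neuron mean after saline was 9.08 in DBA/2J (8.99 to 9.13) and 9.19 in C57BL6/J (9.16 to 9.22), without overlap. After ethanol it was 9.18 (9.11 to 9.28) and 9.12 (9.06 to 9.23), which overlap. Of its 12 genes, 0 passed after saline and 1, lower in DBA/2J, after ethanol. That gene was Slc17a7, which is also among the listed receptor machinery genes. The part of these differences in the Grin2b result was not tested. Over the 27 BXD strains the correlation of either Grin2b probe set with the 11 marker lists lay between -0.341 and 0.278.

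On 1422223_at and 1457003_at the BXD strains took either a low or a high level. Strain means on 1422223_at ran from 5.44 in BXD32 through a median of 6.80 to 7.39 in BXD33. Those on 1457003_at ran from 7.86 in BXD11 through 9.04 to 9.32 in BXD16. The largest step between neighbouring strains was 0.67 on 1422223_at (from 6.13 to 6.80) and 0.72 on 1457003_at (from 8.31 to 9.04). On both probe sets it left 12 strains below and 15 above, and these were the same strains. The C57BL6/J mean over its 6 arrays was 7.04 on 1422223_at and 9.17 on 1457003_at, and the DBA/2J mean was 5.78 and 8.22. In 27 of 27 strains both arrays lay on one side of the midpoint of the progenitors, and on the same side for both probe sets.

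The lower strains were BXD01, BXD05, BXD09, BXD11, BXD15, BXD18, BXD19, BXD31, BXD32, BXD34, BXD36 and BXD39. On 1457003_at their saline arrays ran from 7.63 to 8.50 (median 8.13) and their ethanol arrays from 7.80 to 8.52 (median 8.13). The saline arrays of the other 15 strains ran from 8.99 to 9.49 (median 9.25), and their ethanol arrays from 9.0 to 9.41 (median 9.17). The split was drawn from these levels and is a description.

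**Figure D2:**
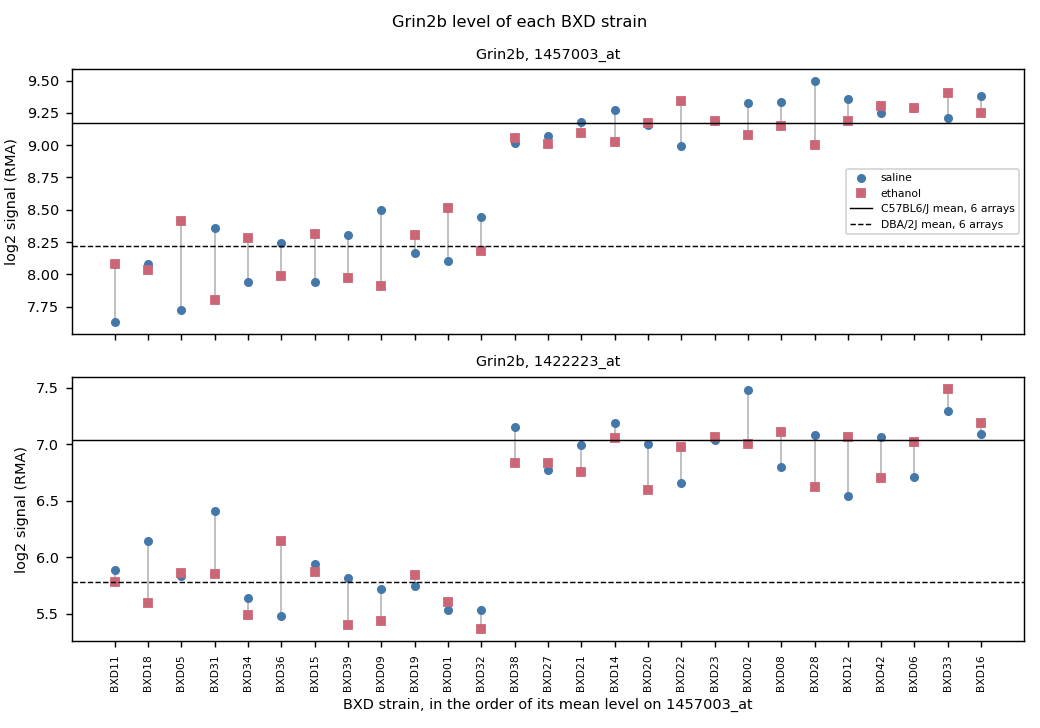
Log2 signal of 1457003_at (top) and 1422223_at (bottom) in each of the 27 BXD strains, with the saline array as a circle and the ethanol array as a square; lines mark the C57BL6/J mean (solid) and the DBA/2J mean (dashed) over 6 arrays each. The first 12 strains lie near the DBA/2J line and the remaining 15 near the C57BL6/J line on both probe sets, and no strain has its arrays in different bands.

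A difference among strains was tested against the spread between the arrays of a strain, with treatment in the model. Of the 11 subunit probe sets 3 passed, all of Grin2b, where 11.9% of all probe sets passed. The moderated F was 18.7 for 1422223_at (limma adjusted p = 2.64e-11) and 14.2 for 1457003_at (limma adjusted p = 1.12e-09). The intraclass correlation, the share of variance that lies between strains, was 0.880 and 0.846.

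The third to pass, 1442370_at, was at the threshold, with an F of 2.53 (limma adjusted p = 0.0498) and an intraclass correlation of 0.353. Its call was lost when any of 15 strains was left out, with the largest adjusted p of 0.132 without BXD38. It passed in 15 of 34 alternative settings. Other losses included centring each array on its median (adjusted p = 0.0523) and adding the array's own SD over probe sets to the model (adjusted p = 0.131). This probe set moved with that SD across strains, with r = 0.594 for saline and 0.602 for ethanol arrays. Its strain means ran from 7.44 in BXD27 through 8.06 to 8.44 in BXD01.

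Strains high on 1457003_at were mostly low on 1442370_at. Of the 10 strains lowest on it, 9 were among the 15 strains high on 1457003_at. Of the 10 strains highest on it, 8 were among the 12 low strains. Strain means covered 7.94 to 8.44 in the low strains and 7.44 to 8.28 in the high strains, so the ranges overlap. The pattern was seen in the data and then counted, and was not tested. Between the progenitors themselves, 1442370_at did not pass under either treatment.

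**Figure D3:**
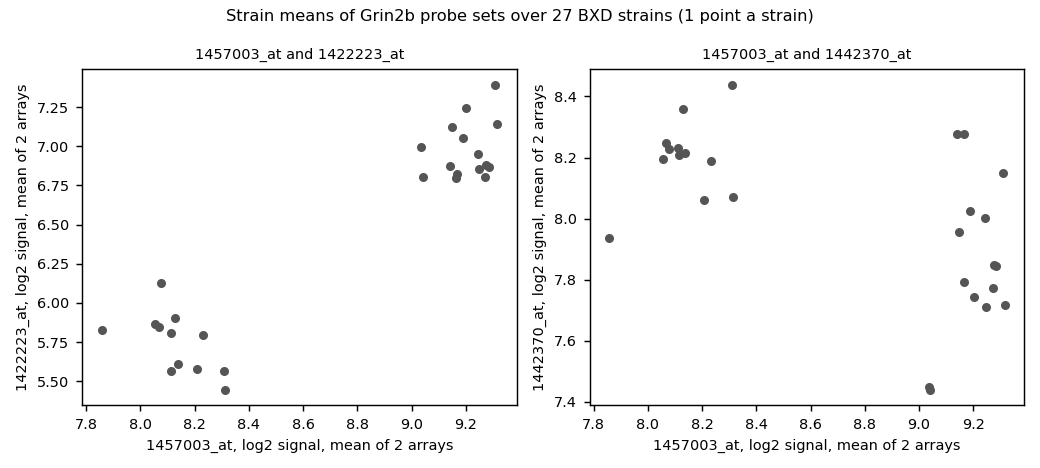
Strain means (2 arrays each, log2 signal) of 1422223_at (left) and 1442370_at (right) against 1457003_at over the 27 BXD strains, with 1 point per strain. On the left the 12 low and 15 high strains form separate clouds. On the right the low strains lie between 7.94 and 8.44 on 1442370_at and the high strains between 7.44 and 8.28.

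Because the strains form separate sets, correlations with these probe sets were taken within each set. Between 1422223_at and 1457003_at, r was 0.285 over the 15 high strains (rho 0.3; permutation p = 0.304 and 0.277; adjusted p = 0.414 and 0.52 over 15 relations; 0.101 without the 2 farthest strains). Over the 12 low strains r was -0.580 (rho -0.657; permutation p = 0.0472 and 0.0234; adjusted p = 0.142 and 0.0701; -0.517 without the 2 farthest). Neither passed, so beyond the step from low to high the probe sets were not shown to order strains alike. Within a set, saline and ethanol arrays of a strain did not correlate past the threshold either. On 1422223_at r was 0.0995 in the high set and 0.148 in the low set, and on 1457003_at -0.131 and -0.508, with adjusted permutation p of 0.406 or more over 13 relations.

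The genes named here, whose strain means were most like those of Grin2b, lay from 3 to 148 genes away from it. Over the 27 strains Atf7ip, which encodes a chromatin protein and lies 3 protein-coding genes from Grin2b in the GRCm38.p6 annotation, had r = 0.880 with 1457003_at and 0.849 with 1422223_at, among 13195 genes compared. Next for 1457003_at came Mgp (r = 0.669, 12 genes away), the matrix Gla protein gene, and Fam234b (0.654, 4 genes away). Next for 1422223_at came Smim10l1 (0.719, 23 genes away) and Ncapd2 (0.653, 148 genes away), a condensin subunit gene. All are on the chromosome of Grin2b.

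Genes with the opposite pattern included some near Grin2b. Ptpro, a receptor tyrosine phosphatase gene 17 genes away, had r of -0.929 with 1457003_at and -0.907 with 1422223_at. H2aj, a histone gene 7 genes away, had -0.887 and -0.883, and Wbp11, a splicing factor gene 8 genes away, -0.920 and -0.877. Of the 20 genes with the largest absolute r, 16 were on the chromosome of Grin2b for 1457003_at and 14 for 1422223_at, against 5.12% of the 12609 placed genes. Strains share long stretches of progenitor chromosome, so genes near each other take the same allele in most strains and these values are not independent of each other.

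Within the 15 high and the 12 low strains r is bound to be smaller in size, since the sets were drawn from these same levels. For Atf7ip and 1457003_at, it was 0.102 in the high set and -0.00164 in the low set. Over Atf7ip, Ptpro, H2aj, Wbp11, Gpr19 and Cdkn1b, the within-set r with 1457003_at ran from -0.437 (Wbp11, low set) to 0.415 (Cdkn1b, high set). Of the 20 measured genes nearest to Grin2b, 4 differed between the progenitors after saline and 3 after ethanol. Over all genes measured 6.01% and 4.18% passed. Among genes at or above the dim level, with adjustment over those alone, 10.3% and 7.23% did. H2aj was higher in DBA/2J by 0.51 after saline (limma adjusted p = 0.00279) and 0.63 after ethanol (3.91e-04), and Wbp11 by 0.43 (0.00839) and 0.56 (9.84e-04). Atf7ip was lower in DBA/2J after saline by a log2 difference of -0.36 (0.0267), but its difference after ethanol, -0.25, did not pass (0.189). Mansc1 passed after saline (-0.46, 0.00520) and Mgp after ethanol (-0.57, 0.0386).

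Ethanol changed none of the subunit probe sets past the threshold. In the BXD panel, 0 of 11 passed with limma, where 0.00444% of all probe sets passed, and 2 of 11 had an unadjusted p below 0.05, as did 3.99% of all. In C57BL6/J 0 of 11 passed (0.00444% of all), with 2 below 0.05 unadjusted (4.7% of all). In DBA/2J 0 of 11 passed (0% of all), with 3 below 0.05 unadjusted (10.2% of all). The difference between the progenitors in their ethanol response passed for 0 of 11 (0% of all), with 3 below 0.05 unadjusted (7.29% of all). The 95% intervals of all 11 lay within 0.876 to 1.13 times the saline signal in the BXD strains, the most precise of these comparisons, so larger mean changes lie outside every interval. In the progenitors the intervals were wider, reaching from 0.542 to 1.55 times in C57BL6/J and from 0.566 to 1.85 times in DBA/2J.

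**Figure D4:**
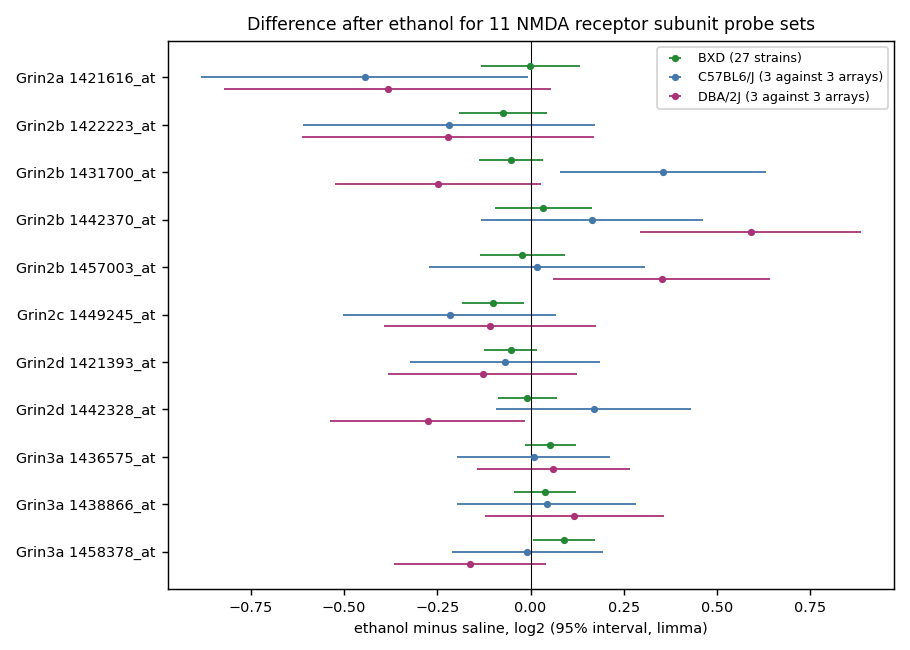
Ethanol minus saline log2 difference with its 95% interval (limma) for the 11 subunit probe sets in the BXD panel (27 strain pairs), C57BL6/J and DBA/2J (3 against 3 arrays each). The BXD intervals are the narrowest, and the largest departure from 0 is that of Grin2b 1442370_at in DBA/2J, 0.59, which did not pass after adjustment.

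For Grin2b the mean BXD difference after ethanol was -0.07 ± 0.06 (SE, 27 strain pairs) on 1422223_at and -0.02 ± 0.06 on 1457003_at. It was 0.03 ± 0.06 on 1442370_at and -0.05 ± 0.04 on 1431700_at. Single strains ranged widely, from -0.59 to 0.69 on 1457003_at and from -0.56 to 0.66 on 1422223_at, and 12 strains were higher and 15 lower after ethanol on each.

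In DBA/2J, 1442370_at read 7.52, 7.94 and 7.71 in the saline arrays and 8.36, 8.19 and 8.39 in the ethanol arrays. These do not overlap, but the difference of 0.59 ± 0.14 (n = 3 against 3) did not pass (unadjusted p = 6.41e-04, limma adjusted p = 0.28). On 1457003_at the DBA/2J difference was 0.35 ± 0.14 (limma adjusted p = 0.417) and on 1422223_at it was -0.22 ± 0.19 (0.712), so the Grin2b probe sets did not share a direction there. In C57BL6/J the corresponding differences were 0.17 ± 0.14, 0.02 ± 0.14 and -0.22 ± 0.19, none past the threshold. The difference between the progenitors in response was largest for 1431700_at, at -0.60 ± 0.18 (DBA/2J minus C57BL6/J; limma adjusted p = 0.68). On 1431700_at the ethanol difference was 0.35 ± 0.13 in C57BL6/J and -0.25 ± 0.13 in DBA/2J. That probe set moved with the array SD over the BXD strains (r = -0.686 for saline and -0.670 for ethanol arrays). Among the progenitor arrays the SD was lowest in saline DBA/2J replicate 1 (2.07). Next came ethanol C57BL6/J replicates 3 (2.09) and 2 (2.11). The part of the array SD in these differences was not tested beyond the fit that includes it.

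Grin2a, the glutamate-binding subunit that gives faster-closing channels and becomes prominent with maturation, was read by 1 dim probe set, 1421616_at. Saline arrays read 5.38, 6.08 and 5.04 in C57BL6/J and 5.65, 5.43 and 5.33 in DBA/2J. Ethanol arrays read 5.08, 5.24 and 4.85 in C57BL6/J and 5.08, 5.41 and 4.77 in DBA/2J. The groups overlap in each comparison made (strains within a treatment, treatments within a strain), and a single saline C57BL6/J array at 6.08 stood highest. The ethanol difference was -0.44 ± 0.21 in C57BL6/J (limma adjusted p = 0.968) and -0.38 ± 0.21 in DBA/2J (0.545), while in the BXD panel it was 0.00 ± 0.07, with 15 strains higher and 12 lower. BXD saline arrays ran from 4.69 through 5.15 to 5.87 and ethanol arrays from 4.85 through 5.19 to 5.76. Its intraclass correlation was -0.328, so arrays of the same strain were no more alike than arrays of different strains (limma adjusted p = 0.951).

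Grin2c, which is best known from the cerebellum and from glial cells, was read by 1449245_at. Saline arrays read 7.12, 7.06 and 7.25 in C57BL6/J and 6.99, 7.10 and 7.49 in DBA/2J, and ethanol arrays 6.81, 7.22 and 6.75 and 7.16, 7.10 and 7.0. The groups overlap throughout. In the BXD panel it had the largest ethanol difference of the subunits, -0.10 ± 0.04 (0.932 times, 95% interval 0.880 to 0.988; unadjusted p = 0.0202, limma adjusted p = 1), and it was lower in 19 of 27 strains. BXD saline arrays ran from 6.76 through 7.15 to 7.36 and ethanol arrays from 6.68 through 7.04 to 7.39. The differences in C57BL6/J (-0.22 ± 0.13) and DBA/2J (-0.11 ± 0.13) had the same sign and did not pass. Strain means covered 6.85 in BXD20 to 7.36 in BXD12, with an intraclass correlation of -0.0195 (limma adjusted p = 0.677).

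Grin2d, a slow-closing subunit associated with interneurons, was read by 2 probe sets. With the brighter, 1442328_at, saline arrays read 6.75, 6.48 and 6.47 in C57BL6/J and 7.16, 6.93 and 6.80 in DBA/2J, which do not overlap. Ethanol arrays read 6.48, 6.79 and 6.94 in C57BL6/J and 6.67, 6.72 and 6.66 in DBA/2J, which overlap. DBA/2J minus C57BL6/J was 0.39 ± 0.12 after saline (limma adjusted p = 0.078) and -0.05 ± 0.12 after ethanol (0.922). The saline difference passed in 3 of the alternative settings: with 1 probe set per gene (0.0478), with all 66 arrays in 1 fit (0.0368) and without ethanol C57BL6/J replicate 1 (0.0450). With the array SD as a covariate it was 0.21 (adjusted p = 0.392), the lowest of the alternatives, which ran up to 0.48. The response differed between the progenitors by -0.45 ± 0.17, which did not pass (0.68). In DBA/2J ethanol arrays were all below saline arrays, a difference of -0.28 ± 0.12 that did not pass either (0.471). BXD saline arrays ran from 6.52 through 6.78 to 7.08 and ethanol arrays from 6.44 through 6.78 to 6.97.

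The second Grin2d probe set, 1421393_at, did not follow. Its saline arrays read 5.52, 5.7 and 5.90 in C57BL6/J and 5.72, 5.66 and 5.88 in DBA/2J, and DBA/2J minus C57BL6/J was 0.05 ± 0.12 (limma adjusted p = 0.873). Ethanol arrays read 5.46, 5.81 and 5.64 in C57BL6/J and 5.7, 5.72 and 5.45 in DBA/2J, and all groups overlap. Over the BXD strains the probe sets of Grin2d correlated (r = 0.531, rho = 0.552, n = 27; permutation p = 0.00439 and 0.00344; adjusted p = 0.017 and 0.0149; r = 0.456 without the 2 farthest strains). Both moved with the SD of the array: r with the saline SD was -0.699 for 1442328_at and -0.534 for 1421393_at. On residuals from the array SD the pair no longer passed (r = 0.163, rho = 0.107; permutation p = 0.419 and 0.595; adjusted p = 0.592 and 0.820). Their BXD ethanol differences were -0.01 ± 0.04 and -0.05 ± 0.03, and their strain effects had limma adjusted p of 0.538 and 0.238.

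Grin3a, the glycine-binding subunit linked to the pruning of young synapses, was read by 3 probe sets. With the brightest, 1438866_at, saline arrays read 7.66, 7.61 and 7.49 in C57BL6/J and 7.64, 7.78 and 7.61 in DBA/2J. Ethanol arrays read 7.74, 7.66 and 7.49 in C57BL6/J and 7.60, 7.74 and 8.05 in DBA/2J. All groups overlap, and DBA/2J minus C57BL6/J was 0.09 ± 0.11 after saline (limma adjusted p = 0.715) and 0.16 ± 0.11 after ethanol (0.609). BXD saline arrays ran from 7.32 through 7.66 to 8.01 and ethanol arrays from 7.33 through 7.67 to 7.96. On 1436575_at the 12 progenitor arrays lay between 6.51 and 6.90, and on 1458378_at between 6.29 and 6.67, and the groups overlap on both in each comparison made.

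The 3 Grin3a probe sets were correlated with each other over the BXD strains. For 1436575_at and 1438866_at r was 0.756 (rho = 0.693, n = 27; permutation p = 1e-05, the smallest 100000 permutations can give, and 1e-04; adjusted p = 1.5e-04 and 0.0015; 0.680 without the 2 farthest strains). For 1438866_at and 1458378_at it was 0.628 (adjusted permutation p = 0.00442), and for 1436575_at and 1458378_at 0.534 (adjusted permutation p = 0.017). The level of 1438866_at correlated with the array SD at 0.645 for saline and 0.593 for ethanol arrays, against 0.390 and 0.0951 for 1436575_at and 0.166 and 0.176 for 1458378_at. On residuals from the array SD the 3 correlations were 0.701, 0.566 and 0.490, with adjusted permutation p of 0.00135, 0.0162 and 0.0477. By rank they were 0.688, 0.480 and 0.520, with adjusted permutation p of 0.00285, 0.0616 and 0.0459. The pair of 1438866_at and 1458378_at thus did not pass by rank. After ethanol the BXD difference was 0.04 ± 0.04 on 1438866_at, 0.05 ± 0.03 on 1436575_at and 0.09 ± 0.04 on 1458378_at. The last was higher in 19 of 27 strains (unadjusted p = 0.0331, limma adjusted p = 1). Strain effects did not pass on any of them, with adjusted p from 0.158 to 0.336.

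**Figure D5:**
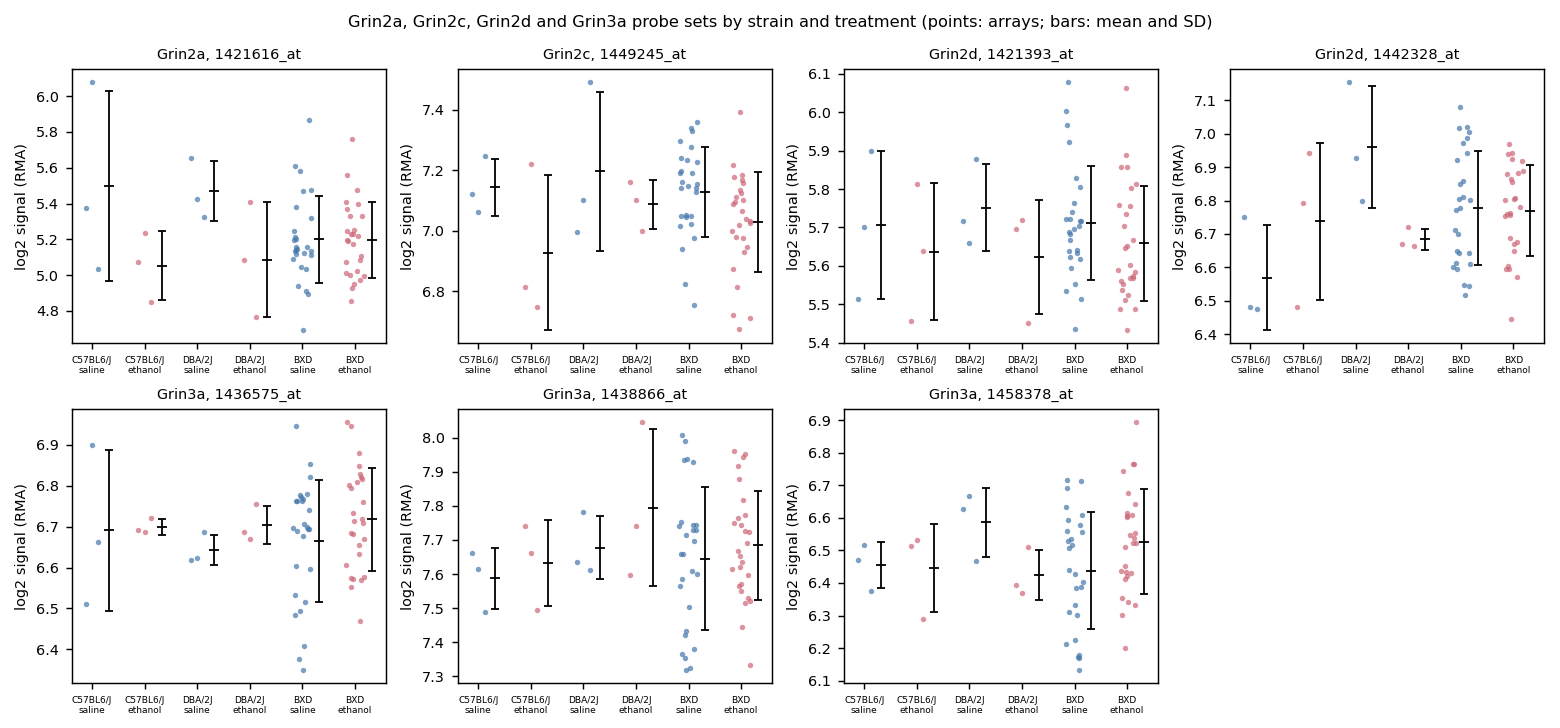
Log2 signal of the 7 probe sets of Grin2a, Grin2c, Grin2d and Grin3a in the 6 strain and treatment groups; points are arrays and bars give mean and SD (n = 3 or n = 27). Progenitor groups of the same treatment or strain overlap for each of them except saline Grin2d 1442328_at, where DBA/2J (6.80 to 7.16) lies above C57BL6/J (6.47 to 6.75), and ethanol against saline in DBA/2J on the same probe set.

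By correlation, saline and ethanol levels of a strain were not shown to be related for any of the 9 probe sets outside the banded pair. For 1442370_at this differs from the strain effect, which passed at the threshold (limma adjusted p = 0.0498). Pearson's r ran from -0.332 for Grin2a to 0.353 for Grin2b 1442370_at, with adjusted permutation p of 0.406 or more over 13 relations, and rho from -0.313 to 0.344, with 0.367 or more. No relation between subunits passed. Of the 14 relations between genes taken by their brightest probe set, 0 passed (smallest adjusted permutation p 0.302 for r and 0.289 for rho), and 2 had an unadjusted p below 0.05 for r and 2 others for rho. For Grin2a and Grin2d r was -0.437 over 27 strains (permutation p = 0.0227), but -0.115 without the 2 farthest strains. For Grin2a and Grin2b it was -0.582 over the 12 low strains (permutation p = 0.0461). On residuals from the array SD the latter was the 1 relation whose r passed (-0.775, adjusted permutation p = 0.0426), while its rho of -0.601 did not (0.518). By rank, Grin2b and Grin3a had a rho of 0.657 over the 12 low strains (permutation p = 0.0229), and Grin2d and Grin3a one of -0.396 over 27 strains (0.0413).

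The ethanol differences of the subunits were also set against that of Npas4, an activity-induced transcription factor gene, whose difference ran from -0.28 to 1.86 over strains and was above 0 in 24 of 27. Over 27 strains r was 0.288 for Grin2a, 0.268 for Grin3a, 0.0326 for Grin2b, -0.117 for Grin2c and -0.126 for Grin2d. None of the 5 passed, with adjusted permutation p of 0.442 or more for r and 0.486 or more for rho.

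Outside Grin2b, the genes most like a subunit over strains lay on other chromosomes. They were Nsmf, Pdgfra and Rbm12 for Grin3a (r = 0.794, 0.783 and 0.777), of which Pdgfra marks oligodendrocyte precursors. They were Rd3, Haao and Spsb1 for Grin2d (0.854, 0.847 and 0.828). For Grin2c they were Triobp, Tcf3 and Scrt1 (0.663, 0.650 and 0.640), and for Grin2a Cdk14, Eftud2 and Ttpal (0.712, 0.692 and 0.683). These correlations are the highest of 13195 and describe the same arrays, which also share their SD.

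The wider receptor machinery was described with 142 listed genes, of which 121 were measured, each by its brightest probe set. After ethanol 0 of 121 passed with limma in the BXD panel, in C57BL6/J, in DBA/2J or in the difference between them, with 3, 3, 9 and 2 below 0.05 unadjusted. Over all genes measured 0.0055%, 0.0055%, 0% and 0% passed in these comparisons, and 4.31%, 4.08%, 9.55% and 6.98% were below 0.05 unadjusted. Of the genes given throughout, the scaffold gene Dlg4 (PSD-95) differed by -0.05 ± 0.05 after ethanol in the BXD panel. The kinase genes Camk2a, Camk2b and Fyn differed by -0.05 ± 0.04, -0.02 ± 0.04 and -0.01 ± 0.03. Srr, the serine racemase gene that makes D-serine, differed by 0.01 ± 0.02, and Grina, a gene named after the receptor, by -0.04 ± 0.05.

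Between the progenitors 6 of 121 listed genes passed in the saline arrays, 2 of them higher and 4 lower in DBA/2J, and 6 in the ethanol arrays, 3 higher and 3 lower. Over all genes measured 6.01% and 4.18% passed. Camk4, a calcium-dependent kinase gene, was lower in DBA/2J by log2 differences of -0.99 ± 0.11 and -1.02 ± 0.11 (limma adjusted p = 9.02e-06 and 6.39e-06). Glul, the astrocyte gene for glutamine synthetase, was lower by differences of -0.56 ± 0.09 and -0.61 ± 0.09 (0.00118 and 5.35e-04). Src, a kinase gene whose product acts on NMDA receptors, was higher by 0.83 ± 0.11 and 0.64 ± 0.11 (1.34e-04 and 0.00185), and Reln, the reelin gene, by 0.34 ± 0.09 and 0.36 ± 0.09 (0.0423 and 0.0375).

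The remaining calls were made under 1 treatment. After saline Dlgap2, a scaffold gene (-0.63 ± 0.14), and Kif5b, a motor protein gene (-0.63 ± 0.14), were lower in DBA/2J. After ethanol Slc17a7, the vesicular glutamate transporter of cortical excitatory neurons (-0.46 ± 0.10), was lower and Csnk2a2, a casein kinase gene (0.45 ± 0.12), was higher. Whether these differ between treatments was not shown, since the difference in response passed for none of the listed genes.

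Among the BXD strains 23 of 121 listed genes had a strain effect, where 13.3% of all genes measured did. The largest were Camk4 (F = 56.6), Glul (7.05), Src (7.02), Dusp4 (6.82), Slc17a7 (6.20) and Prkca (5.59), with limma adjusted p from 2.73e-18 to 8.13e-05. By list, they were 7 of 27 scaffold and adaptor genes, 3 of 24 kinase and phosphatase genes, 3 of 16 genes of glycine and D-serine handling, 3 of 14 of glutamate uptake and release, 3 of 23 of assembly and trafficking, and 4 of 17 of downstream signalling. The scaffold genes Dlg4 (F = 1.22, limma adjusted p = 0.55) and the kinase gene Camk2a (F = 0.965, 0.736) did not pass.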

How the data were processed

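The deposited log2 values were used as the authors made them. The submitters' processing notes name affy and RMA, without versions. RMA subtracts background, makes all arrays share a distribution and summarises the probes of a set. Whether sequence differences between the strains under the probes alter a signal was not tested. Probe sets were named through the platform's annotation with symbols updated: 34945 had 1 gene symbol, 932 several and 9160 none.

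Models were fitted with limma 3.58.1 in R 4.3.3 to all 45037 probe sets, with Benjamini-Hochberg adjustment over all and a threshold of 0.05. The BXD fit had strain as a block and gave the mean ethanol effect and the moderated F over strains. The progenitor fit took 12 arrays in 4 groups. Array number limits precision, and no batch was given. Agreement between probe sets was tested with an exact permutation test, and correlations with 100000 permutations. Where strains fell into separate sets, correlations were taken within sets, which was decided after seeing the data, as were the counts of nearby genes. Residuals from the array SD were taken within the strains of each relation, also decided after seeing the data. The scripts were tested on simulated data.

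All subunit probe sets are given. Partner genes are given by their brightest probe set: 6 always, and up to 6 with the smallest p past the threshold per comparison. The 3 genes most alike by Pearson's r over 27 strain means are given per subunit. The members and lists were chosen with earlier results of these data known. Alternatives were a filter at the 40th percentile, 1 probe set per gene, median centring, repeated quantile normalization, a trended robust prior, array weights, the array SD, all 66 arrays in 1 fit, a replicate block and leaving out arrays or strains. No sequence is printed.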

Additional observations from a re-analysis of the deposited data

How the results depend on the processing

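With 1 probe set per gene after the filter, the subunits with a strain effect numbered 1 (3 otherwise) and those that differed between the progenitors after ethanol 1 (2 otherwise), since only the brightest probe set of each gene is then tested. All other counts of subunits in the 7 comparisons kept within 1.5 times under the alternatives run. The calls of 1422223_at and 1457003_at passed in every alternative run (20 and 21 settings per progenitor comparison, 34 and 35 for strains), with log2 differences between DBA/2J and C57BL6/J from -1.35 to -1.11 and from -1.25 to -1.0 after saline and from -1.42 to -1.01 and from -0.87 to -0.67 after ethanol. The strain effect of 1442370_at passed in 15 of 34, and was lost without any of BXD01, BXD11, BXD12, BXD15, BXD16, BXD19, BXD21, BXD22, BXD27, BXD28, BXD31, BXD33, BXD34, BXD36 and BXD38. Small ethanol differences changed sign under some settings, none of them called. Replicate numbers did not pair arrays (correlation of same-numbered deviations -0.353 to 0.230), and with a replicate block the counts stayed at 0 for each ethanol comparison and at 2 for each difference between progenitors. The count of relations between subunits that passed was 1 on residuals from the array SD (0 otherwise), Grin2a and Grin2b in the 12 low strains. With the same residuals, chosen after seeing the data, 3 relations between probe sets of a gene passed by r (4 otherwise), the Grin2d pair being lost. By rank the Grin3a pair of 1438866_at and 1458378_at did not pass either (adjusted permutation p = 0.0616). The other counts of agreement or correlation calls did not change. Over all probe sets the count that passed ranged from 1365 to 3547 after saline (2596 in the fit reported), from 954 to 2330 after ethanol (1943), from 2688 to 6089 for strains (5345), and from 0 to 20 for ethanol in DBA/2J. The DBA/2J ethanol difference of 1442370_at had an adjusted p from 0.125 to 0.851. With 3 arrays per progenitor group, the intervals of the ethanol differences are wider than in the BXD panel.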
